A study of Saccharomyces cerevisiae with 12 samples.

Results

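The 10 genes described here encode subunits of the mitochondrial ATP synthase of budding yeast and are carried in the nucleus. They were picked by name from the 10891 features of a table of normalized RNA densities, namely ATP1, ATP2, ATP3, ATP4, ATP5, ATP7, ATP14, ATP16, ATP17 and ATP20. All 10 were in the table and all passed the filter on low values. RNA was sequenced by a strand-specific protocol after depletion of ribosomal RNA, from 12 libraries of 6 Saccharomyces cerevisiae strains, 2 libraries per strain. Every strain was BY4741, MATa his3Δ1 leu2Δ0 met15Δ0, grown in YPD (rich glucose medium) at 30°C to mid-log phase (OD600 of 0.5). The control, WT, was ura3Δ0 in addition, and each of the other 5 strains was ura3Δ and carried a kanMX4 cassette in place of the gene of an RNA helicase, giving ecm32Δ, slh1Δ, ski2Δ, dbp1Δ and dhh1Δ. The labels call the replicates biological, and they do not say whether a deletion was studied in more than 1 clone.

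ATP synthase is a rotary machine of the inner mitochondrial membrane. Protons flow through its membrane-embedded part and turn a central stalk inside a head of alternating alpha and beta subunits, where ATP is made, while a peripheral stalk keeps the head from turning along. Yeast growing on glucose lives mainly by fermentation and keeps many respiratory genes low. Most subunits are made from nuclear genes and imported, and a few membrane subunits are made from mitochondrial DNA. The Hap2/3/4/5 complex, which binds CCAAT boxes, is known to drive many nuclear respiratory genes in yeast, and Puf3 binds a short RNA element in many transcripts of nuclear genes for mitochondrial proteins. Dhh1, the helicase missing in dhh1Δ, acts in decapping and translational repression of mRNA.

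Sequences of the members were searched for the elements of these 2 regulators in the RefSeq R64 genome. The Hap element was searched as ACCAATNA on both strands of the 500 bases before each start codon. It was present in 5 of the 10 members, which is 50.0%, against 516 of 6000 protein-coding genes (8.6%). In all 5 it lay on the coding strand, 178 to 230 bases before the start codon. These stretches are printed 5′ to 3′ on the strand of the gene, with the element in capitals, because they show what the 5 genes share around the same place.
ATP3: gtgatggagaACCAATGAgcggcgagta
ATP17: tacggagagaACCAATCAtatcgaagga
ATP7: taaaagatacACCAATTAccacttgctg
ATP14: ccatacacgaACCAATTAtgcatcataa
ATP4: tcaatattgaACCAATCAcgacgctttt

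The stretches lie at chrII:315369-315396 (plus strand, 196 bases before the ATP3 start codon), chrIV:1228371-1228398 (plus strand, 230 bases before ATP17), chrXI:408150-408177 (minus strand, 178 bases before ATP7), chrXII:722554-722581 (minus strand, 198 bases before ATP14) and chrXVI:408917-408944 (minus strand, 190 bases before ATP4). The Puf3 element was searched as TGTANATA on the coding strand of the 200 bases after each stop codon. Of the members only ATP1 held it, 50 bases after the stop codon at chrII:38730-38757 on the plus strand, so 1 of the 10 members held it, against 844 of 6002 genes (14.1%). It is shown as the single such match among the 10.
ATP1: caaaaagaaaTGTAAATAtagaaatttt

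A match of letters is a description and was not tested for binding. Among related nuclear genes, the Puf3 element was in 3 of 4 other nuclear subunits, 0 of 3 inhibitors, 10 of 14 assembly and expression factors, 0 of 4 carriers, 0 of 11 genes of the bc1 complex and cytochrome c, 1 of 10 cytochrome c oxidase subunits, 0 of 5 Hap factors and 1 of 2 RNA-binding regulators. The Hap element was in 3, 1, 2, 2, 3, 5, 1 and 0 of these lists' genes in the same order.

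Library depth was 8.79 to 17.66 M reads, median 14.48 M, and the members had 274 to 22872 reads each in a library. The 10 members together took 0.187 and 0.184% of the endogenous reads in the WT libraries, 0.207 to 0.231% in the 8 libraries of the other deletions and 0.408% in each dhh1Δ library. The values are the authors' densities, reads per nucleotide divided by a size factor taken from snoRNAs. On the deposited scale the median log2 fold change of all 9497 tested features against WT was 0.39 in the libraries labelled ski2Δ, 0.33 in those labelled dbp1Δ, 0.08 in ecm32Δ, -0.09 in slh1Δ and -0.20 in dhh1Δ. With factors from protein-coding genes it was -0.01, 0.0057, -0.02, 0.0040 and -0.16 in the same order. Values scaled on protein-coding genes are printed beside the deposited ones. The deleted genes had 3 and 2 reads (ECM32 in ecm32Δ), 1 and 0 reads (SLH1 in slh1Δ) and 73 and 77 reads (DHH1 in dhh1Δ, against 1976 and 3032 in WT). The libraries labelled ski2Δ went against their label, with 1352 and 1742 reads of SKI2 and 2 and 4 reads of DBP1. Those labelled dbp1Δ had 2 and 1 reads of SKI2 and 170 and 125 of DBP1, so both pairs are named by their labels throughout. The spike-in RNAs took 1.22% of the reads of WT replicate 1 and 1.72 to 2.69% of the other libraries.

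All 10 members rose in dhh1Δ against WT, by 1.38-fold for ATP4 to 2.80-fold for ATP14, with a median log2 fold change of 1.16 where the median over all tested features was -0.20. Each passed an adjusted p of 0.05 in limma-trend, fitted over all features with Benjamini-Hochberg adjustment, a rule that called 13.7% of all features higher in this comparison. The change was 2-fold or more for 6 of the 10 (ATP1, ATP2, ATP5, ATP7, ATP14 and ATP20), against 4.15% of features. With protein-coding factors all 10 were again called higher, against 18.3% of features, with a median of 1.19. Both dhh1Δ libraries lay above both WT libraries for all 10 members on either scale, against 24.5% of features as deposited and 27.5% with protein-coding factors. In 9 of the 10, every one but ATP4, both dhh1Δ libraries lay above the other 10 libraries, which held for 8.43% of features, and with protein-coding factors this was so for all 10, against 19.2%. With spike-in factors 4 of the 10 were called higher (ATP2, ATP7, ATP14 and ATP20), against 287 of 9497 features. The log2 fold changes of all 10 then ran from 0.24 (ATP4) to 1.26 (ATP14). Without WT replicate 1 the median over all features on that scale was 0.09, against -0.40 with it. In bulk RNA, more RNA per cell and more cells of a kind cannot be told apart.

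**Figure D1:**
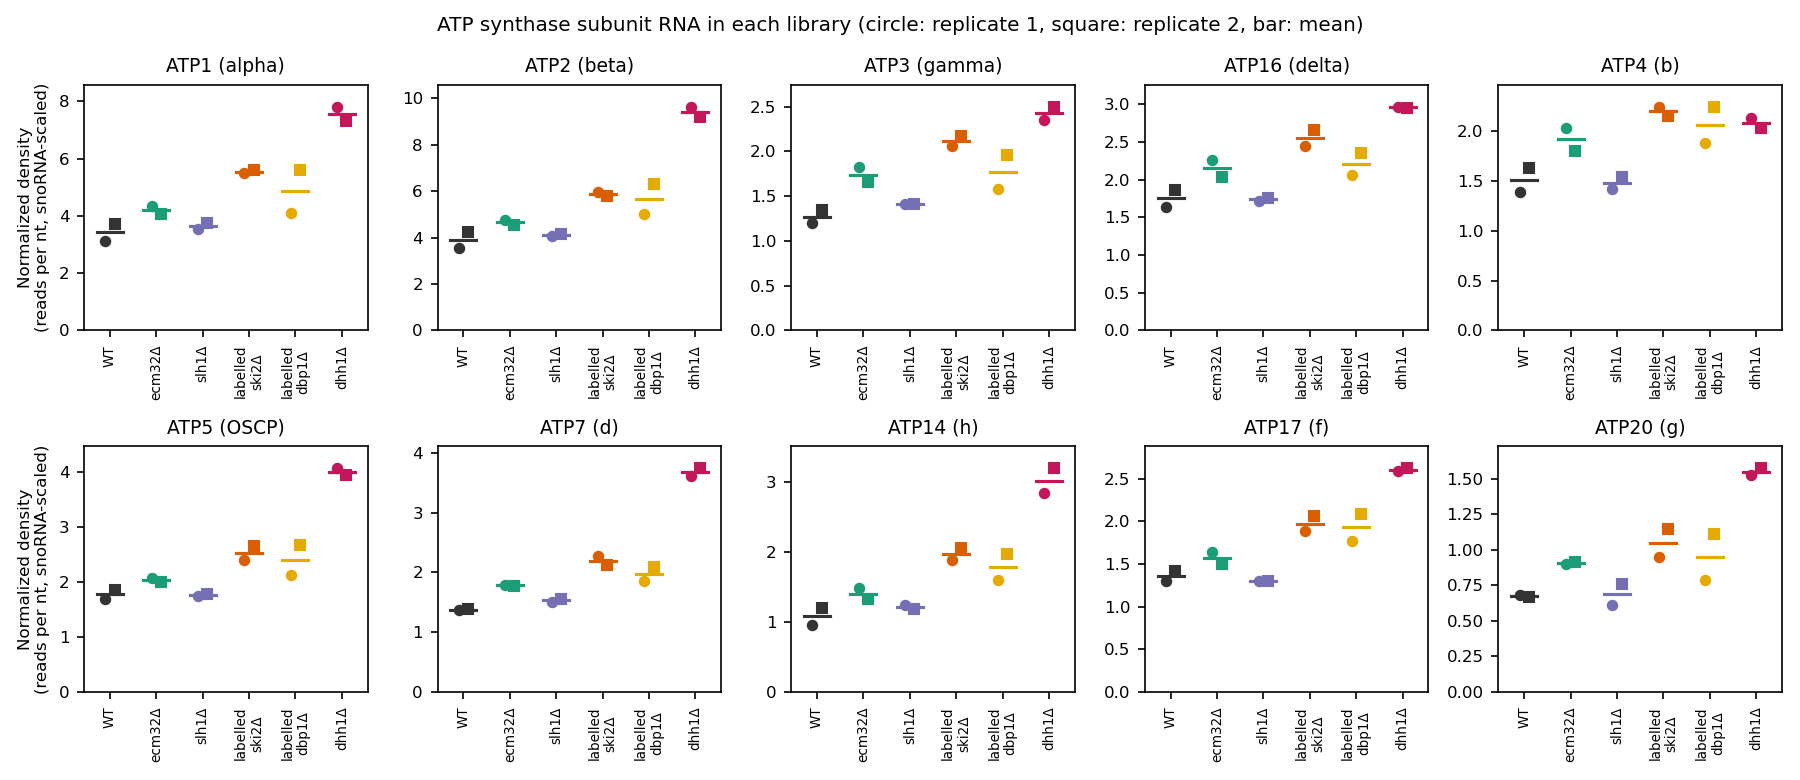
Normalized density (reads per nucleotide, scaled on snoRNAs, axis from 0) of each of the 10 members in the 12 libraries, by strain. Circles are replicate 1, squares replicate 2 and bars the mean of the 2. In every panel but that of ATP4 both dhh1Δ libraries are the highest.

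The alpha and beta subunits form the head, and beta carries the catalytic sites. ATP2 (YJR121W, beta, chromosome X 647607 to 649142, plus strand) had densities of 3.56 and 4.24 in WT, 4.74 and 4.56 in ecm32Δ, 4.05 and 4.13 in slh1Δ, 5.95 and 5.78 in the libraries labelled ski2Δ, 5.02 and 6.32 in those labelled dbp1Δ, and 9.63 and 9.21 in dhh1Δ. Both dhh1Δ libraries lay far above the rest, and the slh1Δ libraries lay within the span of the WT pair. The log2 fold change in dhh1Δ was 1.28 (SE 0.12, limma adjusted p 1.81e-05), a 2.42-fold rise. ATP1 (YBL099W, alpha, chromosome II 37053 to 38690, plus strand) had 3.14 and 3.71 in WT, 3.53 to 5.61 in the 8 libraries of the other deletions and 7.81 and 7.33 in dhh1Δ. Its log2 fold change in dhh1Δ was 1.15 (SE 0.14, limma adjusted p 9.78e-05). The 2 head genes rose by similar amounts, with 95% intervals of 1.01 to 1.55 for ATP2 and 0.84 to 1.45 for ATP1.

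The central stalk turns inside the head. ATP3 (YBR039W, gamma, chromosome II 315575 to 316510, plus strand), the shaft of the rotor, had densities of 1.20 and 1.34 in WT, 1.41 to 2.17 in the 8 libraries of the other deletions and 2.35 and 2.50 in dhh1Δ. ATP16 (YDL004W, delta, chromosome IV 443029 to 443511, plus strand), at the foot of the shaft, had 1.64 and 1.86 in WT, 1.72 to 2.66 in the other deletions and 2.97 and 2.96 in dhh1Δ. In both genes the dhh1Δ pair was the highest, with a narrower gap to the next library than in the head genes. The log2 fold changes in dhh1Δ were 0.93 (SE 0.12, limma adjusted p 0.000113) for ATP3 and 0.76 (SE 0.11, limma adjusted p 0.000273) for ATP16.

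The 4 subunits of the peripheral stalk held both the strongest and the weakest change. ATP14 (YLR295C, subunit h, chromosome XII 721999 to 722373, minus strand) had densities of 0.963 and 1.20 in WT, 1.48 and 1.33 in ecm32Δ, 1.24 and 1.18 in slh1Δ, 1.89 and 2.06 in the libraries labelled ski2Δ, 1.60 and 1.97 in those labelled dbp1Δ, and 2.85 and 3.20 in dhh1Δ. The dhh1Δ pair was the highest, and the ecm32Δ pair and the pairs labelled ski2Δ and dbp1Δ also lay above both WT libraries, while the slh1Δ pair overlapped them. The log2 fold change in dhh1Δ was 1.49 (SE 0.13, limma adjusted p 1.11e-05).

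ATP7 (YKL016C, subunit d, chromosome XI 407465 to 407989, minus strand) had densities of 1.37 and 1.38 in WT, 1.80 and 1.77 in ecm32Δ, 1.51 and 1.56 in slh1Δ, 2.27 and 2.13 in the libraries labelled ski2Δ, 1.86 and 2.08 in those labelled dbp1Δ, and 3.61 and 3.74 in dhh1Δ. No deletion library of ATP7 reached down to the WT pair. Its log2 fold change in dhh1Δ was 1.42 (SE 0.09, limma adjusted p 9.49e-07). ATP5 (YDR298C, the OSCP subunit that ties the stalk to the head, chromosome IV 1058176 to 1058814, minus strand) had 1.69 and 1.86 in WT, 1.75 to 2.68 in the other deletions and 4.07 and 3.94 in dhh1Δ. Its log2 fold change in dhh1Δ was 1.17 (SE 0.12, limma adjusted p 2.26e-05).

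ATP4 (YPL078C, subunit b, the long helix that spans the peripheral stalk, chromosome XVI 408010 to 408744, minus strand) was the exception. Its densities were 1.39 and 1.62 in WT, 2.03 and 1.80 in ecm32Δ, 1.42 and 1.53 in slh1Δ, 2.24 and 2.16 in the libraries labelled ski2Δ, 1.88 and 2.24 in those labelled dbp1Δ, and 2.13 and 2.03 in dhh1Δ. The dhh1Δ pair lay above WT and among the libraries labelled ski2Δ and dbp1Δ. Its log2 fold change in dhh1Δ was 0.47 (SE 0.12, 95% interval 0.21 to 0.72, limma adjusted p 0.00928), an interval wholly below those of ATP2, ATP5, ATP7, ATP14, ATP1 and ATP20. Without dhh1Δ replicate 1 the call was lost, at 0.43 with a limma adjusted p of 0.0670, and without WT replicate 1 as well, at 0.35 with a limma adjusted p of 0.0594.

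Subunits f and g sit in the membrane, and g helps pairs of ATP synthase form dimers. ATP17 (YDR377W, f, chromosome IV 1228611 to 1228916, plus strand) had densities of 1.30 and 1.41 in WT, 1.30 to 2.09 in the other deletions and 2.59 and 2.62 in dhh1Δ. ATP20 (YPR020W, g, chromosome XVI 599870 to 600217, plus strand) had 0.679 and 0.671 in WT, 0.612 to 1.15 in the other deletions and 1.53 and 1.57 in dhh1Δ. Both dhh1Δ pairs lay above every other library. The log2 fold changes in dhh1Δ were 0.94 (SE 0.11, limma adjusted p 5.61e-05) for ATP17 and 1.19 (SE 0.16, limma adjusted p 0.000191) for ATP20.

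The members that hold the Hap element include those with the strongest rise in dhh1Δ, ATP14 (1.49) and ATP7 (1.42), and the one with the weakest, ATP4 (0.47), with ATP17 (0.94) and ATP3 (0.93) between them. The 5 without it spanned 0.76 (ATP16) to 1.28 (ATP2). ATP1, the holder of the Puf3 element, rose by 1.15.

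Compared with the mean of the other 4 deletions, a contrast that uses no WT library, 9 of the 10 members were higher in dhh1Δ, with a median log2 fold change of 0.78. This rule called 11.0% of all features higher, and with protein-coding factors it called 20.7% of features and all 10 members. ATP7 was highest at 0.99 (SE 0.07, limma adjusted p 1.67e-06), and ATP14 followed at 0.95. ATP4 was not called as deposited, at 0.14 (95% interval -0.06 to 0.34, limma adjusted p 0.221), and was called with protein-coding factors at 0.37 (SE 0.05, limma adjusted p 0.000197).

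**Figure D2:**
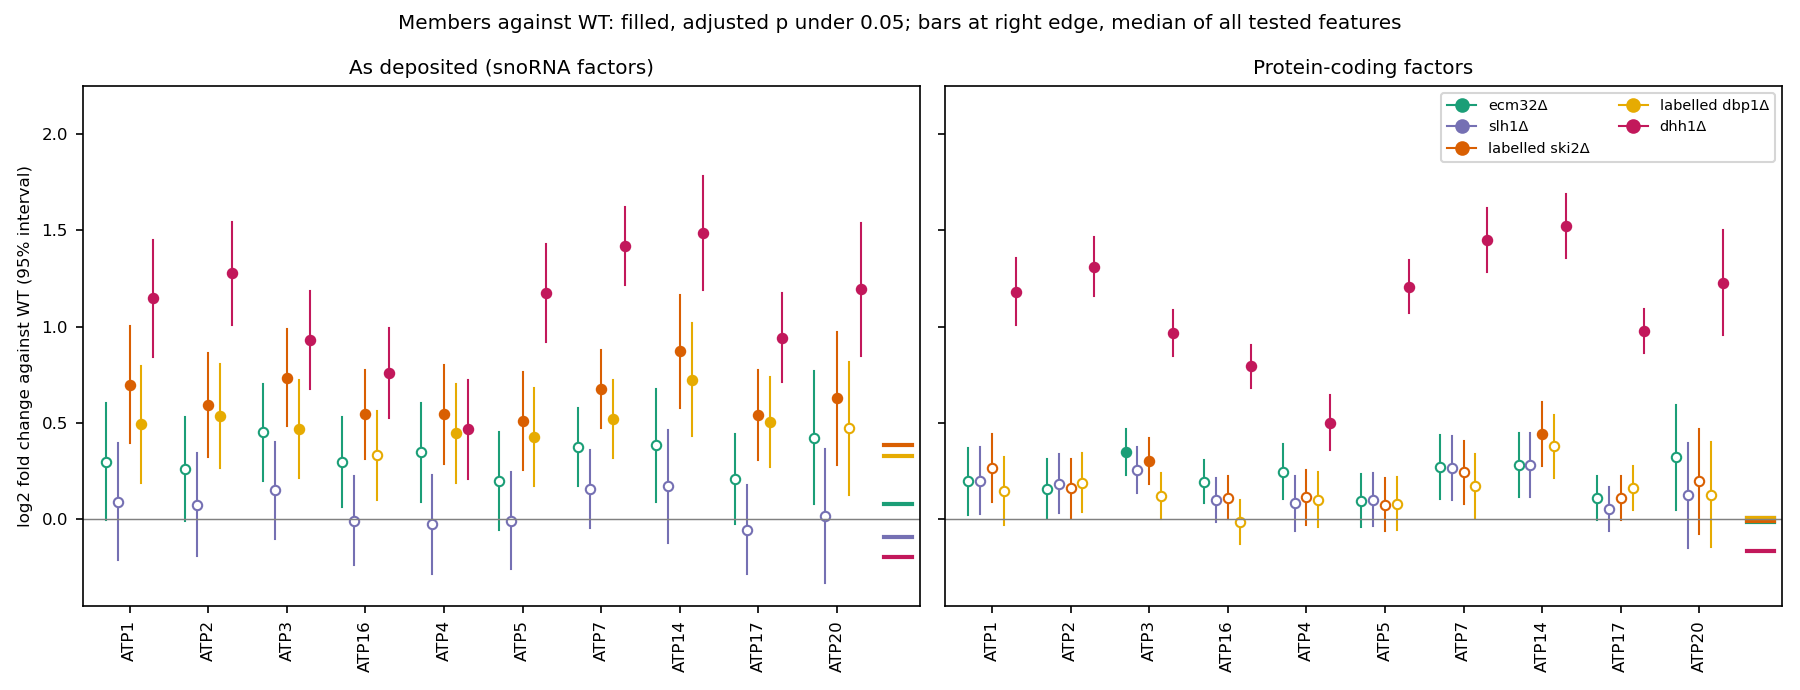
Log2 fold change of each member against WT in the 5 deletions, with 95% intervals, on the deposited scale (left) and with protein-coding factors (right). Filled points have an adjusted p under 0.05, and short bars at the right edge are the median of all tested features. The dhh1Δ points of all 10 members are filled on both scales, and the points of the libraries labelled ski2Δ are filled for 10 members on the left and 2 on the right.

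The other deletions were compared with the same WT libraries, so these comparisons are not independent of each other or of that of dhh1Δ. In the libraries labelled ski2Δ all 10 members were called higher than WT as deposited, by a log2 fold change of 0.51 (ATP5) to 0.87 (ATP14), median 0.61. That rule called 39.3% of all features higher, and the median over all features was 0.39. Both libraries lay above both WT libraries for all 10 members, as they did for 66.9% of features. With protein-coding factors 2 of the 10 were called, against 0.284% of features. These were ATP14 at 0.44 (SE 0.07, limma adjusted p 0.0288) and ATP3 at 0.30 (SE 0.05, limma adjusted p 0.0347). The median of the members was then 0.18 and both libraries still lay above both WT libraries for all 10, as for 16.7% of features. Most of the 10 calls as deposited were lost without WT replicate 1, and without replicate 2 of the libraries labelled ski2Δ. The median over all features was then 0.30 and 0.34, against 0.39 with all libraries.

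In the libraries labelled dbp1Δ, 8 of the 10 members were called higher as deposited, against 17.2% of features, with log2 fold changes from 0.33 (ATP16) to 0.72 (ATP14) and a median of 0.48. The 2 that missed the threshold were ATP16 at 0.33 (limma adjusted p 0.0509) and ATP20 at 0.47 (limma adjusted p 0.0561). Replicate 2 was higher than replicate 1 in all 10 members. The calls depended on single libraries, and were lost without replicate 2 or without WT replicate 1. The median over all features, 0.33 with all libraries, was then 0.23 and 0.25, and it was 0.44 without replicate 1. Without either dhh1Δ library, which enters only through the shared spread, 5 were called. With protein-coding factors limma-trend called 0 of the 10, against 0.295% of features. On that scale 5 members were under an unadjusted p of 0.05, against 1247 of 9497 features in either direction. ATP14 was then at 0.38 (limma adjusted p 0.0579). Both libraries lay above both WT libraries for all 10 members as deposited, against 62.1% of features, and for 7 with protein-coding factors, against 21.7%.

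In ecm32Δ limma-trend called 0 of the 10 members as deposited, a rule that called 0.0316% of features higher. Of the members, 6 had an unadjusted p under 0.05, against 825 of 9497 features in either direction. Voom on the recovered reads also called 0 members. The log2 fold changes ran from 0.20 (ATP5) to 0.45 (ATP3), median 0.32, where the median over all features was 0.08. Both ecm32Δ libraries lay above both WT libraries for all 10 members, which held for 24.3% of features, and with protein-coding factors this was again so for all 10, against 18.4%. On that scale ATP3 was called at 0.35 (SE 0.05, limma adjusted p 0.0418), against 0.0526% of features.

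In slh1Δ limma-trend called 0 of the 10 members, against 0.00% of features called higher. No member had an unadjusted p under 0.05 as deposited, against 668 of 9497 features in either direction, and voom called 0 members. The log2 fold changes ran from -0.05 (ATP17) to 0.17 (ATP14), with 95% intervals of -0.29 to 0.18 and -0.12 to 0.46. Both slh1Δ libraries lay above both WT libraries for 2 members (8.17% of features) as deposited and for 9 with protein-coding factors (19.0% of features). With protein-coding factors 0 were called, against 0.0211% of features. On that scale 5 members had an unadjusted p under 0.05, against 850 of 9497 features in either direction.

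Each of these 4 strains was also set against the mean of the other 4 deletions, a mean that includes dhh1Δ. All 10 members were called higher than WT in dhh1Δ, which raises this mean, so a lower call here is not a fall against WT. With protein-coding factors the members' median against WT was 0.14 in the libraries labelled dbp1Δ. In slh1Δ all 10 members were called lower than that mean, by a log2 fold change of -0.48 to -0.70, against 31.3% of features called lower and 0.526% called higher. In ecm32Δ 2 members were called lower (ATP14 at -0.43 and ATP7 at -0.32), against 4.53% of features lower and 0.821% higher. At an unadjusted p under 0.05 there were 6 members, against 1831 of 9497 features in either direction. In the libraries labelled ski2Δ limma-trend called 0 members, against 41.0% of features higher and 0.874% lower. There 3 members had an unadjusted p under 0.05, against 4992 of 9497 features, and voom called 2 members. In those labelled dbp1Δ limma-trend called 0, against 23.1% of features higher and 0.484% lower. There 0 members had an unadjusted p under 0.05, against 3977 of 9497 features, and voom called 0. With protein-coding factors the members called lower were 5 in slh1Δ (1.16% of features), 6 in ecm32Δ (7.41%), 5 in the libraries labelled ski2Δ (4.28%) and 8 in those labelled dbp1Δ (4.48%). With spike-in factors 0 were called in any of the 4 by limma-trend. At an unadjusted p under 0.05 there was 1 member, in slh1Δ, against 345 of 9497 features in either direction. Voom was not run on that scale.

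Since densities are per nucleotide, levels can be set side by side between genes. ATP2 was the most abundant member and ATP20 the least in every strain, 5.78-fold apart in WT (3.90 ± 0.484 against 0.675 ± 0.00585, SD, n = 2) and 6.07-fold apart in dhh1Δ (9.42 ± 0.295 against 1.55 ± 0.0331, SD, n = 2). ATP2 was above ATP1 and ATP1 above each of the remaining members in all 12 libraries, though the ranges of ATP2 and ATP1 over the WT pair overlapped. In WT the order went on with ATP5, ATP16, ATP4, ATP7, ATP17, ATP3 and ATP14. The ranges of ATP5 and ATP16 overlapped, as did those of ATP7 with ATP17, ATP17 with ATP3 and ATP3 with ATP14. Within each WT library, though, ATP17 was above ATP3 and ATP3 above ATP14. Over all 12 libraries these held in 6 and 8. ATP5 with ATP16 and ATP7 with ATP17 changed order between the WT libraries. In dhh1Δ the order after ATP1 was ATP5, ATP7, ATP14, ATP16, ATP17, ATP3, ATP4 and ATP20, with overlap between ATP14 and ATP16 only. ATP4 moved from the fifth place in WT to the ninth, and ATP14 from the ninth to the fifth. The counted length of a gene was longer than its coding sequence in 8 of the 10 members and equal to it in ATP2 and ATP14. An error in a transcript end would move a gene's level, and also its fold change where it alters which reads are counted.

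The level of each member relative to the geometric mean of the other 9 does not depend on how a library was scaled. For ATP4 this log2 ratio was -0.13 and -0.06 in WT and -0.74 and -0.82 in dhh1Δ. The 10 libraries outside dhh1Δ lay between -0.26 and -0.03, so both dhh1Δ libraries were below all of them, and the mean fell by 0.68. ATP14 moved the other way, from -0.72 and -0.55 in WT to -0.27 and -0.09 in dhh1Δ, a difference of 0.45. ATP7 went from -0.15 and -0.32 in WT to 0.12 and 0.16 in dhh1Δ, a difference of 0.38. For both, the dhh1Δ pair was above the other 10 libraries.

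Smaller shifts of the same kind were seen for ATP2 (0.22) and ATP5 (0.10), which were above the other 10 libraries in both dhh1Δ libraries, and for ATP16 (-0.36) and ATP3 (-0.16), which were below them. ATP1, ATP17 and ATP20 overlapped the other libraries. The ratio of ATP14 was also higher in the libraries labelled ski2Δ (-0.40 and -0.33) and dbp1Δ (-0.37 and -0.38) than in WT. The ratios share their denominators, so the shifts are not independent of each other, and they were not tested.

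**Figure D3:**
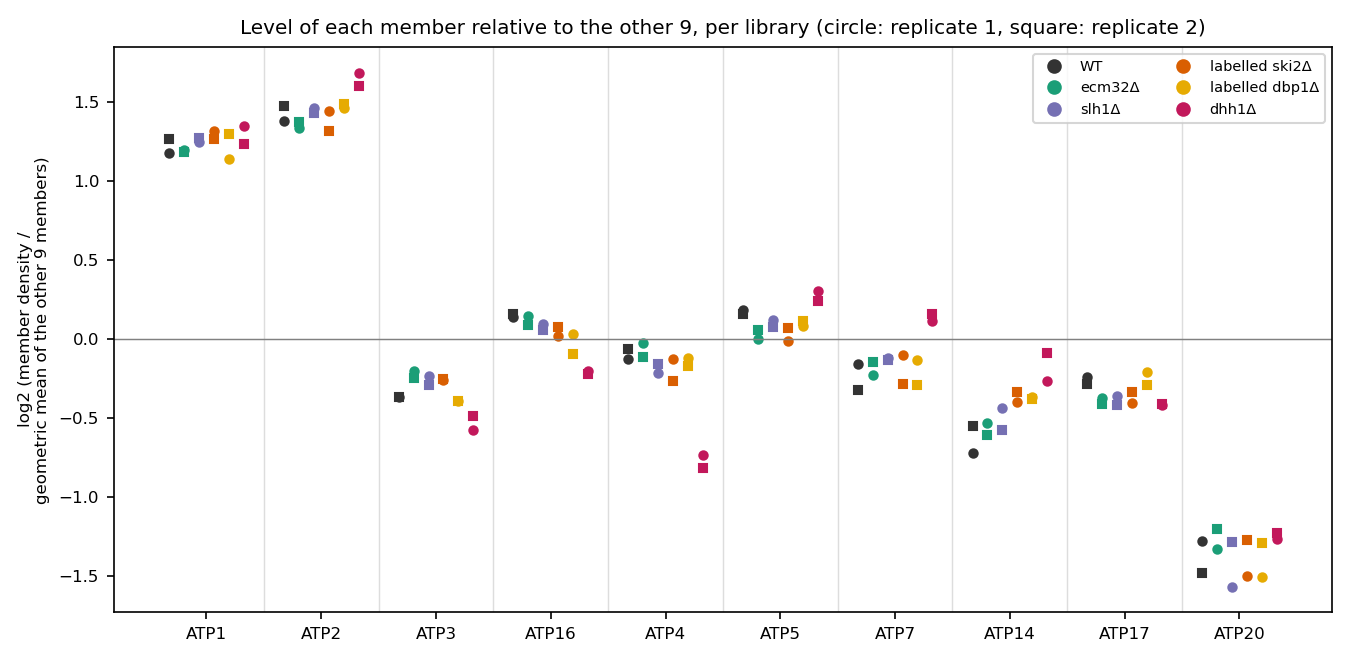
Log2 ratio of each member's density to the geometric mean of the other 9 members, in each of the 12 libraries (circles replicate 1, squares replicate 2, colours by strain). ATP4 drops from between -0.26 and -0.03 in the other libraries to -0.74 and -0.82 in dhh1Δ, and ATP14 and ATP7 stand higher there than in any other library.

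The rest of the machine and its partners were set beside the members for dhh1Δ. The other 4 nuclear subunits all rose (4 of 4 called higher, against 13.7% of features). ATP15, the epsilon subunit of the central stalk, had densities of 1.82 and 2.27 in WT and 6.44 and 6.59 in dhh1Δ, a log2 fold change of 1.68 (SE 0.12, limma adjusted p 2.47e-06). ATP19 (subunit k) was at 1.24 and ATP18 (subunit i/j) at 1.03, and TIM11 (subunit e), named to complete the list, at 0.64. The 3 inhibitors and stabilizers of inhibition all rose, with log2 fold changes above those of the 10 members, a difference that was not tested. INH1, which blocks ATP hydrolysis by the enzyme, had 0.464 and 0.468 in WT and 2.26 and 2.16 in dhh1Δ, a log2 fold change of 2.23 (SE 0.18, limma adjusted p 4.52e-06). STF2 was at 2.43 and STF1 at 2.12.

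Of the 3 subunits encoded in mitochondrial DNA, limma-trend called 0 in dhh1Δ and voom called 1. None had an unadjusted p under 0.05 in limma-trend, against 4576 of 9497 features in either direction. OLI1, the subunit of the proton-driven ring, had densities of 18.1 and 17.5 in WT and 21.9 and 20.6 in dhh1Δ, a log2 fold change of 0.26 (95% interval -0.02 to 0.53, limma adjusted p 0.123). With protein-coding factors it was called, at 0.29 (limma adjusted p 0.0168). ATP6, the subunit of the proton channel, was at 0.74 (SE 0.37, limma adjusted p 0.132), and its 2 WT libraries differed widely, at 1.27 and 0.814. ATP8 had 6 to 59 reads per library.

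Among 14 factors for assembly of the enzyme or expression of its mitochondrial subunits, 4 were called higher and 2 lower in dhh1Δ. Of all features, 13.7% were called higher and 24.3% lower. The median log2 fold change of the 14 was 0.27. FMC1, needed for head assembly in heat, was at 1.21 (SE 0.28, limma adjusted p 0.00618) and ATP12, a chaperone of the alpha subunit, at 0.70 (SE 0.13, limma adjusted p 0.00133). NCA3, which acts in expression of the mitochondrial subunits, was at -0.85 (SE 0.22, limma adjusted p 0.00991). Of 4 carriers, the phosphate carrier MIR1 (1.40) and the main ADP/ATP carrier PET9 (1.11) rose. AAC3, another ADP/ATP carrier, had 0.138 and 0.154 in WT and 0.0343 and 0.0256 in dhh1Δ, a log2 fold change of -2.12 (SE 0.17, limma adjusted p 4.86e-06).

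The respiratory complexes that supply the proton gradient were set beside them in the same comparison, in which 13.7% of all features were called higher. All 11 genes of the cytochrome bc1 complex and cytochrome c were called higher in dhh1Δ, with a median of 1.43, led by CYC7 (3.30), QCR10 (2.18) and RIP1 (1.94). Of 10 nuclear subunits of cytochrome c oxidase, 9 were called higher, with a median of 1.22, led by COX26 (2.53), COX7 (1.82) and COX9 (1.49). CYC7 and COX26 were low in WT, with 22 and 29 reads over both WT libraries together. The exception, noticed after the values were seen, was COX5B at 0.16 (limma adjusted p 0.248), which encodes an alternative form of subunit 5, beside COX5A at 1.33. Of 5 Hap factors 3 were called higher, and HAP4, the limiting activator of the complex, was at 0.94 (SE 0.16, limma adjusted p 0.000920). HAP3 was at 0.61 and HAP2 at 0.48. HAP5 and HAP1, named to complete the list, were not called. HAP5 went the other way, at 81.0% of its mean WT density, with both dhh1Δ libraries below both WT libraries. HAP1 was at 107%. PUF3 was called higher at 0.61 (limma adjusted p 0.00985) and CLU1, which binds mRNAs for mitochondrial proteins, lower at -0.70 (limma adjusted p 0.00120).

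**Figure D4:**
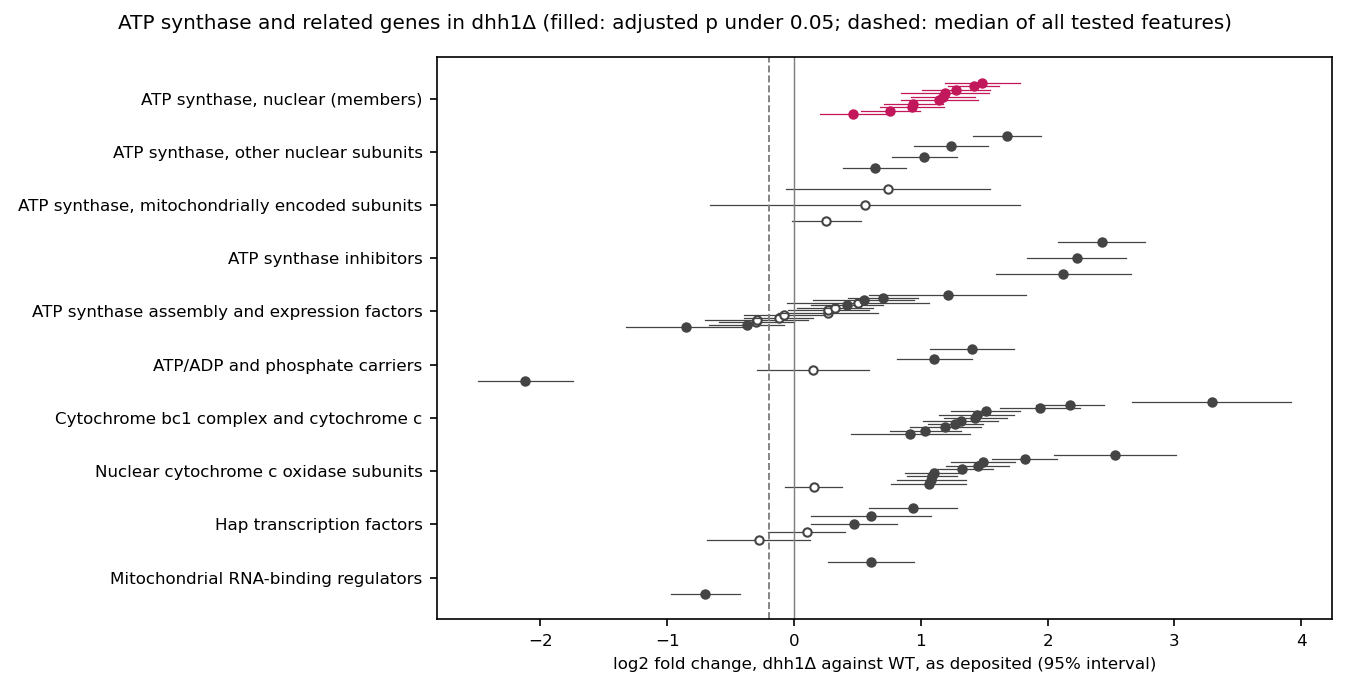
Log2 fold change in dhh1Δ against WT on the deposited scale, with 95% intervals, of the 10 members (top row) and of 9 lists of related genes. Filled points have an adjusted p under 0.05, the solid line is 0 and the dashed line is the median of all tested features, -0.20. Nuclear subunits, inhibitors and the genes of the bc1 complex lie right of 0, while the assembly factors spread to both sides and AAC3 lies far left at -2.12.

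In ecm32Δ and slh1Δ limma-trend called 0 of the 56 genes of the 9 lists as deposited. At an unadjusted p under 0.05, 19 were higher and 0 lower in ecm32Δ, where 825 of 9497 features passed in either direction. In slh1Δ 3 were higher and 1 lower, where 668 of 9497 features passed. Voom called 0 of the 56 in both. In the libraries labelled ski2Δ limma-trend called 4 of 4 other nuclear subunits, 3 of 3 inhibitors, 2 of 3 mitochondrial subunits and 8 of 14 assembly factors higher. It also called 10 of 11 genes of the bc1 and cytochrome c list and 10 of 10 of cytochrome c oxidase. Of the carriers 2 of 4 were called, of the Hap factors 3 of 5 and of the RNA-binding regulators 2 of 2. These counts stand against the 39.3% of all features named above. With protein-coding factors ATP19 alone among the 4 other subunits was called there, at 0.50 (limma adjusted p 0.0323), and none of the inhibitors. The libraries labelled dbp1Δ had calls higher in 3, 2, 1, 6, 9, 8, 0, 1 and 2 genes of these lists in the same order, against 17.2% of features. With protein-coding factors 1 gene, an assembly factor, was called in them, against 0.295% of features.

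The gene most like the members over the 12 libraries was NDE1, an NADH dehydrogenase that feeds the respiratory chain from the cytosolic side. Likeness was the Pearson correlation of log2 densities with the mean profile of the members, after subtracting each library's median over protein-coding genes, among 1117 protein-coding genes at least as abundant as the lowest member. NDE1 had r = 0.992 over the 12 libraries and 0.952 over the 10 without dhh1Δ. It was followed by DMO1 (0.990), CYC1 (0.988), COX9 (0.988), COX4 (0.987), COX5A (0.986), QCR7 (0.986) and COX13 (0.986). Outside dhh1Δ these 7 were at 0.64 (COX5A) to 0.78 (COX13). In all, 159 of the 1117 candidates had r above 0.9, and the points share their libraries and depth. DMO1 lies 130 bases before ATP2 on the same strand, its counted length of 2345 bases reaches over ATP2, and its reads were 106 to 108% of those of ATP2 in every library, so most of its reads may be those of ATP2.

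Each member set against the mean of the other 9 in the same way had r between 0.879 (ATP4) and 0.989 (ATP1) over the 12 libraries. Over the 10 libraries outside dhh1Δ, r ran from 0.60 (ATP17) to 0.92 (ATP3). The 12 points are dominated by the contrast between dhh1Δ and the rest, and these values are descriptions.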

How the data were processed

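Normalized densities of 10891 features in 12 libraries were used as deposited. The authors' signal values are densities, reads per nucleotide divided by a library factor. The factors match median ratios over snoRNAs within 0.554%, and multiples of single reads were recovered for 100% of 124137 values above 0 (tolerance 0.02 reads), so depths are recovered values. Per the submitters' processing notes the tools were Trim Galore, HISAT2 2.2.0, featureCounts 2.0.0 and DESeq2, with build R64, in no stated role. The extract protocol in the labels names rRNA depletion and a stranded kit.

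Densities were tested with limma-trend (limma 3.58.1, R 4.3.3) on a log2 scale after adding 0.00508 to each density (the 10th percentile of nonzero values). Spike-ins and features whose mean was at or below 0.00508 were left out, which left 9497. All 12 libraries entered a single model, which left 6 residual degrees of freedom. P-values were adjusted by Benjamini and Hochberg within each comparison, at 0.05. The pseudocount was at most 0.829% of any member's density, so it hardly moves their fold changes. Permuting 2 libraries against 2 cannot give a two-sided p below 0.333. The p-values printed come from the fitted model, which sets each difference against a spread shared by the replicate pairs of all strains. Protein-coding factors are median ratios over 5610 genes, and spike-in factors over 60 spike-ins. The code was tested on simulated data.

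Members are the 10 genes named at the start. From each of 9 lists of related genes the text names up to 3 called genes with the largest change in a comparison, or the smallest adjusted p where none was called, and exceptions are marked. The members, lists and rules were chosen with earlier results of these data known. Sequences and coordinates come from RefSeq R64.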

Additional observations from a re-analysis of the deposited data

How the results depend on the processing

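In dhh1Δ against WT the log2 fold changes of all 10 members stayed above 0 under all 24 alternatives. Against WT all 10 were called except with spike-in factors (4) and without WT replicate 1 or dhh1Δ replicate 1 (9 each). Against the mean of the other 4 deletions, 9 were called in each case of a library left out. All alternatives but 2 were planned. Spike-in and protein-coding factors without WT replicate 1 were added after the data were seen, since that library had the lowest spike-in share. The cause of the changes given here was not tested.

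The 8 calls in the libraries labelled dbp1Δ became 0 with protein-coding factors, 0 with spike-in factors, 1 with quantile normalization, 1 with only the strains compared, and 0 with either added scaling. Leaving out a library gave 0 to 10. The 10 calls in those labelled ski2Δ became 2, 0, 1, 0, 0 and 0 in the same order, and 1 to 10. In ecm32Δ the 0 calls became 1 with protein-coding factors, and without a library there were 0 in ecm32Δ and in slh1Δ. With spike-in factors the sign turned in the libraries labelled ski2Δ for ATP1 (-0.066), ATP2 (-0.17), ATP3 (-0.030), ATP4 (-0.22), ATP5 (-0.26), ATP7 (-0.089), ATP16 (-0.22), ATP17 (-0.22) and ATP20 (-0.14). Of the 8 members called in those labelled dbp1Δ, it turned for ATP1 (-0.053), ATP2 (-0.010), ATP3 (-0.077), ATP4 (-0.10), ATP5 (-0.12), ATP7 (-0.027) and ATP17 (-0.040). These turned values had SEs of 0.36 to 0.37 and limma adjusted p of 0.73 to 0.998, so none was called. The log2 spike-in factor was -0.99 in WT replicate 1 and 0.27 in WT replicate 2. On this scale the median over all features was -0.33 in the libraries labelled ski2Δ and -0.19 in those labelled dbp1Δ. Without WT replicate 1 these medians were 0.18 and 0.32. Members not called as deposited also fell below 0 under some alternative. The lowest values in the libraries labelled dbp1Δ were -0.21 for ATP16 and -0.073 for ATP20. In ecm32Δ the lowest were -0.059 for ATP5 and -0.047 for ATP17, and in slh1Δ every member had a lowest value below 0.

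Counts of features called moved as follows. In dhh1Δ against WT, 3604 became 1575 with spike-in factors and 2206 to 3790 with a library left out, and against the other deletions 5385 became 1478 and 3519 to 5584. For the libraries labelled ski2Δ against WT, 3802 became 79 with protein-coding factors, 80 with quantile normalization, 115 with spike-in factors, 7 with only the strains compared, 30 and 41 with the added protein-coding and spike-in scalings, and 48 to 4114 with a library left out. Against the other deletions, 3977 became 638, 608, 68, 677 and 204 under these scalings, and 1170 to 4491. For the libraries labelled dbp1Δ against WT, 1673 became 68, 72, 66, 452, 49 and 41 in the order just given, and 20 to 3077. Against the other deletions, 2242 became 822, 496, 47, 881 and 219, and 42 to 2544. In ecm32Δ against WT, 7 became 16 with protein-coding factors, 56 with spike-in factors, 20 with only the strains compared, 1 with a pseudocount 10 times as large, 4 and 12 with the added scalings, and 1 to 12. Against the other deletions, 508 became 1299 with protein-coding factors, 1162 with quantile normalization, 61 with spike-in factors, 1360 with the added protein-coding scaling, 776 with a filter 10 times as high, 868 with voom, and 74 to 821. In slh1Δ against WT, 1 became 4 with protein-coding factors, 7 with quantile normalization, 56 with spike-in factors, 11 with only the strains compared, 6 and 4 with the added scalings, 13 with the higher filter, 4 with a pseudocount 10 times as small, 20 with voom, and 1 to 4. Against the other deletions, 3023 became 225, 206, 21, 262 and 436, and 60 to 3685.

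The ratios of members to the other 9 kept their sign without any 1 library, with ATP14 at 0.37 to 0.54, ATP3 at -0.21 to -0.12 and ATP4 at -0.72 to -0.64. Replicate numbers are shared by the strains. Differences between replicates correlated at -0.078 to 0.072 over pairs of strains, so no large difference shared by same-numbered libraries was seen. This cannot show whether same-numbered libraries were grown or prepared together. With a replicate block, 3683 features were called in dhh1Δ against WT, 3900 and 1607 in the libraries labelled ski2Δ and dbp1Δ, 7 in ecm32Δ and 1 in slh1Δ, and the block called 10, 10, 9, 0 and 0 of the members.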
